A study of Gallus gallus with 33 samples.

Results

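Genes that encode the transcription factors at the end of the NF-kB, JAK-STAT, interferon, TGF-beta and NFAT pathways were followed after laser wounding of cultured sensory epithelium from the utricle of the chick, which senses gravity and head tilt. The members are the 37 identifiers on the array that begin with NFKB, STAT, IRF, MADH or NFAT or that equal REL, RELA or RELB, out of 1516 identifiers analysed. MADH is the older symbol of the SMAD genes, and no identifier on the array began with SMAD itself. They comprise 5 NF-kB/REL subunits, 5 inhibitors of the IkB kind or genes named after them, 7 STATs, 7 interferon regulatory factors (IRFs), 8 SMADs and 5 NFATs. The epithelia of White Leghorn chicks, no more than a few weeks after hatching, had been freed by enzyme and kept in culture as fragments before a pulsed laser microbeam drew linear wounds through them. Recovery lasted from 30 min to 3 hr, in 4 time points. Unlesioned cultures, taken from the incubator during the lesioning and returned with their lesioned counterparts, served as time-matched controls, and a biological sample pooled several cultures of each kind. PolyA RNA of lesioned (laser) and control cultures was amplified in successive rounds, coupled to Cy3 or Cy5 and compared on 33 two-colour arrays, with 3 biological samples at 3 hr and 2 at every earlier time point. The 50-base probes represent human coding sequence, so chick RNA was read across species. By the study's N-cadherin staining the cultures were nearly pure sensory epithelium, and in such bulk RNA fewer cells of a type and less RNA per cell cannot be told apart.

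Most of these factors wait in the cytoplasm in an inactive form until a signal arrives. NF-kB dimers, built from NFKB1, NFKB2, REL, RELA and RELB, are retained by IkB proteins, which are destroyed when tumor necrosis factor, interleukin 1 or a product of tissue damage reaches the cell. STAT proteins are phosphorylated by JAK kinases below cytokine receptors, and several IRFs carry interferon responses. SMADs transmit TGF-beta and BMP signals from receptor to nucleus. NFATC1, NFATC2, NFATC3 and NFATC4 enter the nucleus when calcineurin, activated by calcium, removes phosphate from them. Activation is largely a matter of protein modification, while a microarray reads mRNA. Several of the genes, among them NFKBIA, NFKB2, RELB, IRF1 and MADH7 (SMAD7), are also known as transcriptional targets of their own pathways in mammals, so that their mRNA is commonly used as an endpoint of signalling.

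Against the chicken gene table of assembly GRCg7b (RefSeq), which was used for names alone, 23 of the 37 members equalled a current symbol, 8 matched once MADH was read as SMAD, and 2 matched a synonym. IRF3 is listed there as a synonym of chicken IRF7, and STAT5B as one of STAT5A, so the human probes for IRF3 and IRF7, and those for STAT5A and STAT5B, each point to 1 chicken gene. NFATC4, NFKBIL1, NFKBIL2 and RELB were not matched. Each member had a probe on the 33 arrays except NFKBIB, which the earlier of the 2 print versions (5 arrays) lacked.

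The arrays differed in brightness and in how well their dye orientations matched. The median Cy3 signal of an array ran from 190 to 2418 and the median Cy5 signal from 88.8 to 1439, and duplicate spots correlated with r from 0.844 to 0.987. In 4 of the 9 samples (1 hr replicate 2, 2 hr replicate 2, 3 hr replicate 2 and 3 hr replicate 3) the log2 ratios from arrays with laser RNA in Cy3 and from arrays with laser RNA in Cy5 correlated below -0.3 over 371 probes after both had been turned to laser over control (r = -0.631, -0.373, -0.781 and -0.799). No direction was settled for those 4 samples beyond the dyes stated in the image names. The SD of the ratios was 1.04 in 3 hr replicate 1 and from 0.162 to 0.401 in the other samples, and some 3 hr values are therefore also given without that sample. Of 14 marker genes of hair cells and sensory epithelium on the array, 4 were above the dim filter, among them SOX2 (25 arrays), while the hair cell regulators ATOH1 and POU4F3 exceeded a signal of 1000 on 12 and 10 arrays. Stromal markers (1 of 9) and blood and immune markers (3 of 10, including the myeloid factor SPI1 on 21 arrays) also passed, and their part in the results was not tested. The share of all 1516 probes above the filter was 24.5%.

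Most of these signalling genes gave dim probes. A member was taken as detected, and tested, where the brighter of its channels exceeded 1000 on 50% or more of the 33 arrays. Only 8 of the 37 members (21.6%) met this rule, compared with 371 of all 1516 probes (24.5%). They were NFKB2 (29 arrays), MADH5 (25), IRF2 (24), MADH7 (22), MADH4 (21), MADH9 (20), NFKBIA (18) and RELB (18). By family, 4 of 8 SMADs, 2 of 5 NF-kB/REL subunits, 1 of 5 IkB genes and 1 of 7 IRFs passed, and 0 of 7 STATs and 0 of 5 NFATs did. Just outside the limit lay MADH6, NFATC3, NFKBIL1 and NFKBIL2 (16 arrays each), and the dimmest members were NFATC1 and STAT5A (8 arrays each). RELB and NFKBIA lay just inside it, and without the 6 arrays of 3 hr replicate 1 each was above 1000 on 12 of 27 arrays (44.4%).

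**Figure D1:**
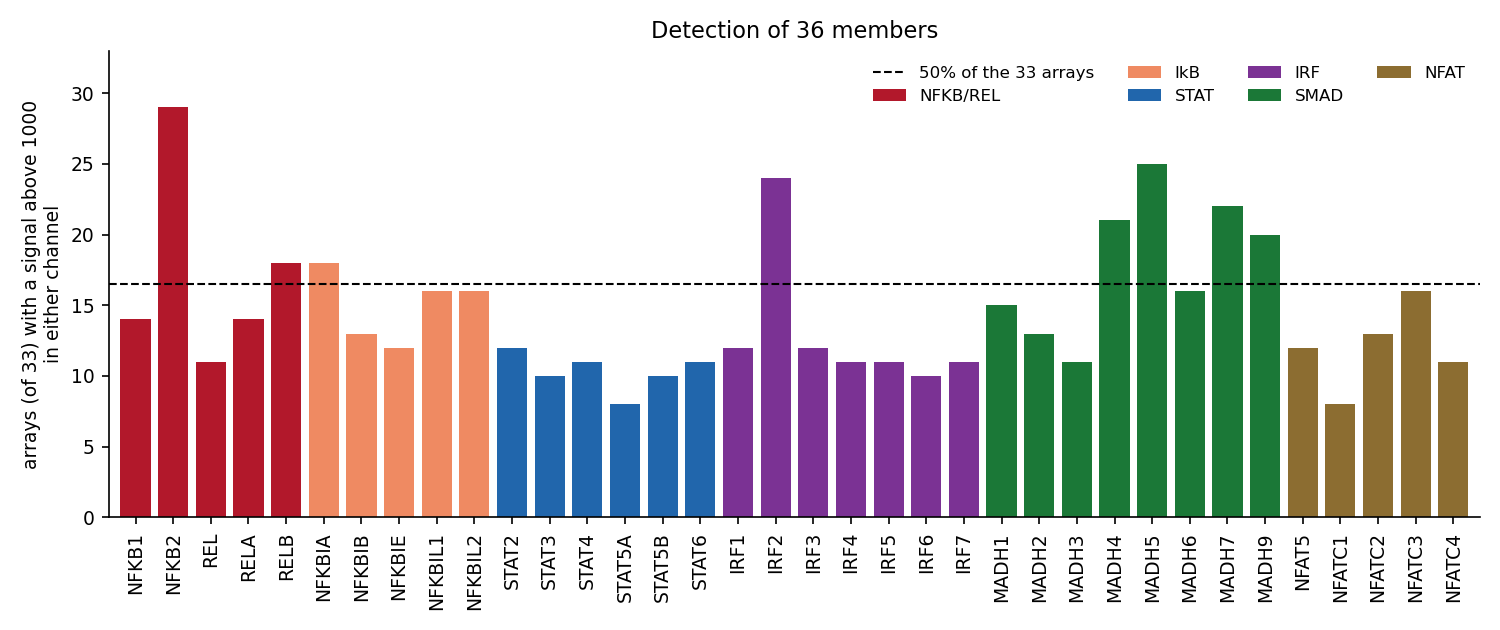
Bars show, for 36 of the members, the number of the 33 arrays with a signal above 1000 in either channel, coloured by family, and the dashed line marks 50% of the arrays. The 8 members above the line are 4 SMADs, 2 NF-kB/REL subunits, NFKBIA and IRF2, and the STATs drawn lie between 8 and 12 arrays.

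No member changed by the test at any of the 4 time points. In the limma fit over the 9 samples, 0 of the 8 tested members had an adjusted p under 0.05 at any of them, as did 0 of all 371 probes (0%), and the members' smallest adjusted p-values from the earliest to the latest time were 0.989, 0.996, 0.993 and 0.655. At an unadjusted p under 0.05 the members numbered 0, 0, 0 and 1 (MADH7 at 3 hr), against 0.809%, 1.35%, 1.35% and 2.16% of all probes. Members whose mean ratio exceeded 1.2-fold in either direction numbered 0, 2, 2 and 4 in the same order, compared with 21.8%, 18.3%, 18.6% and 34.8% of all probes. At 30 min 5.66% of all probes lay past that fold above control and 16.2% below it. At 1 hr IRF2 lay above (9.43% of all probes) and NFKB2 below (8.89%), and at 2 hr 0 members lay above (8.89%) and MADH5 and MADH7 below (9.7%). The 4 at 3 hr (IRF2, MADH5, MADH7 and NFKB2) were all lower in the laser RNA, as were 32.9% of all probes against 1.89% higher. With 3 hr replicate 1 left out, MADH7 (-0.27) was the single member over 1.2-fold, which is 0.263 on the log2 scale. The means were 0.21 for NFKB2, -0.06 for MADH5 and -0.14 for IRF2, and the share of all probes was not counted there. The standard errors of the members' log2 ratios ran from 0.137 to 0.622 at the times with 2 samples and from 0.111 to 0.507 at 3 hr, and the number of biological samples limits what could be detected. With the 4 samples of opposed dye orientations left out, which leaves replicate 1 as the only 3 hr sample, 3 members (MADH5, MADH7 and NFKB2) and 27.5% of all probes were called at 3 hr.

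The signs of the samples were also counted. Of the 8 tested members, 0 were above 0 in both samples at 30 min (14.3% of 371 probes) and 0 below it in both (18.1%). At 1 hr 4 were above 0 in both samples (IRF2, MADH4, MADH7 and NFKBIA, against 26.4%) and RELB was below (23.7%). At 2 hr IRF2 and MADH9 were above (32.1%) and MADH5 and MADH7 below (33.7%), and at 3 hr MADH4 was above in all 3 samples (10.5%) and 0 members were below (9.97%). Over all 37 members, dim ones included, 1 was above and 8 below at 30 min (16.2% and 15.5% of 1516 probes), 13 and 6 at 1 hr (21.8% and 26%), 17 and 9 at 2 hr (29.9% and 32%), and 3 and 4 at 3 hr (11.7% and 8.91%). Without the filter 0 of 37 members had an adjusted p under 0.05 at any time (0% of 1516 probes), and those at an unadjusted p under 0.05 were IRF1, IRF3 and NFKBIL2 at 2 hr (3 members, 6.07% of probes), MADH7 at 3 hr (1 member, 2.04%) and 0 members at 30 min (2.24%) and 1 hr (1.45%).

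**Figure D2:**
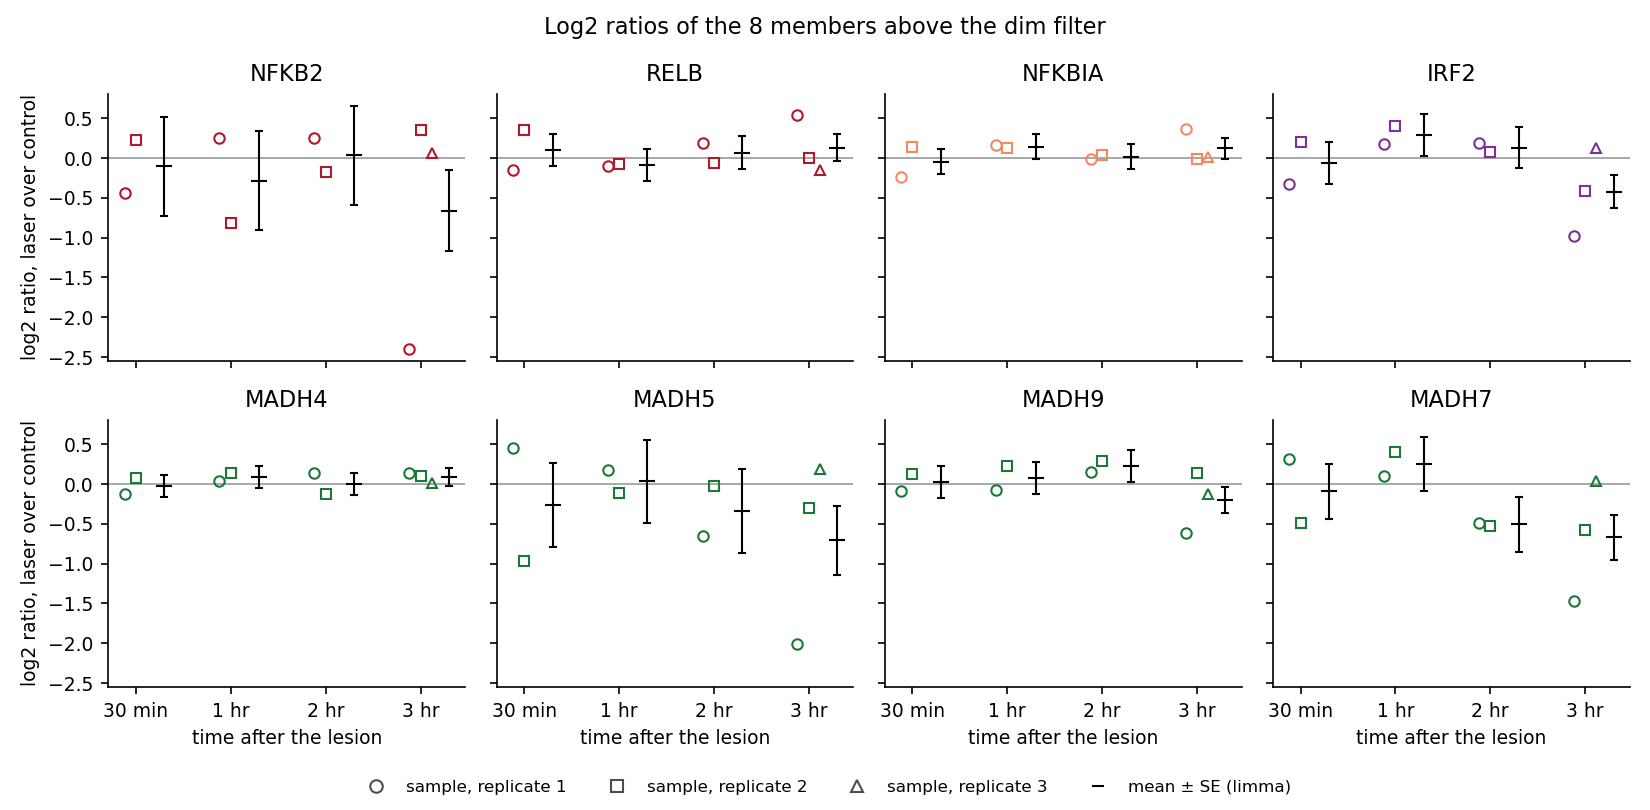
Points are the log2 ratios of laser over control in the 9 biological samples (circle, replicate 1; square, replicate 2; triangle, replicate 3) for the 8 members above the dim filter, by time after the lesion, and black marks are the limma mean with its SE. The low points at 3 hr replicate 1 in NFKB2 (-2.40), MADH5 (-2.01) and MADH7 (-1.47) stand apart from the other samples of that time.

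Among the NF-kB/REL subunits, NFKB2 (p100, processed to the p52 subunit of the alternative pathway) was the member detected on the most arrays. Its log2 ratios were -0.43 and 0.23 at 30 min, 0.25 and -0.82 at 1 hr, 0.25 and -0.18 at 2 hr, and -2.40, 0.35 and 0.07 at 3 hr. The samples of each time point thus lay on both sides of 0, and the low mean at 3 hr (-0.66 ± 0.51 SE, n = 3, adjusted p = 0.655) came from a single sample. Within that sample the 6 arrays ran from -5.30 to 0.18, with 1 of them above 0. RELB, the partner of p52 in the alternative pathway, gave -0.15 and 0.35 at 30 min, -0.10 and -0.07 at 1 hr, 0.19 and -0.06 at 2 hr, and 0.54, 0.00057 and -0.14 at 3 hr. Its mean at 3 hr was 0.13 ± 0.17 SE (adjusted p = 0.759), with 2 of 3 samples above 0. The 3 other subunits were below the dim filter. NFKB1 (p105/p50), RELA (p65) and REL (c-Rel) stayed between -0.24 and 0.14 in the 9 samples.

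The RELB value of 3 hr replicate 1 depended on how the array was normalized more than that of any other tested member. Before normalization its laser channel was brighter than its control channel on all 6 arrays of that sample, in both dye orientations, with laser signals of 13203 to 60191 (median 35812) and control signals of 766 to 5533 (median 1870), on a scanner scale whose highest recorded value was 65535. Such a direction was common in that sample: 201 of the 371 probes (54.2%) and 3 of the 8 members (MADH4, NFKBIA and RELB) were brighter in the laser channel on all 6 arrays. With loess, which removes a trend of the ratio with brightness, the ratio of RELB was 0.54, or 0.90 above the median of the 371 probes. With each array centred on its median and no loess it was 2.52, or 2.23 above the corresponding median. The highest of these laser signals were near the top of the scanner scale. RELB and NFKBIA passed the filter only with the arrays of this sample (12 of 27 arrays each without them). The 371 probes and 8 members counted here were chosen with these arrays included. In the 8 other samples RELB ran from -0.15 to 0.35 with loess and from -0.20 to 0.50 with median centring, and its laser signals did not exceed 2113. The bright RELB signal was seen in 1 of the 3 biological samples at that time.

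**Figure D3:**
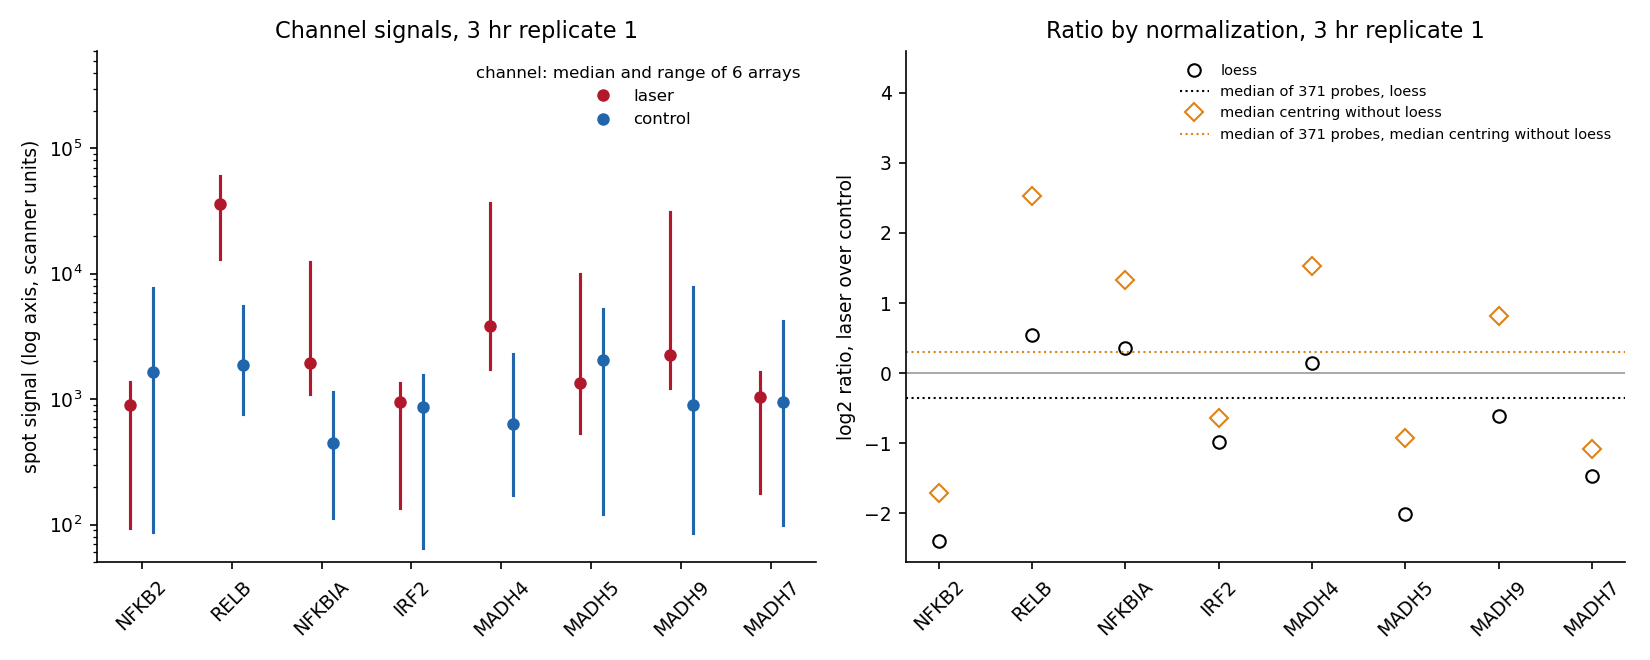
Left, spot signals of the 8 tested members on the 6 arrays of 3 hr replicate 1 (log axis, scanner units), as the median (point) and range (line) of the laser (red) and control (blue) channels, to be compared within a member only. Right, the log2 ratio of laser over control in that sample with loess (black circles) and with median centring alone (orange diamonds), with dotted lines for the median of the 371 probes under each; RELB moves from 0.54 to 2.52, and MADH9 from -0.61 to 0.82.

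Median centring moved the median log2 ratio of all 371 probes at 3 hr by 0.20, from -0.06 to 0.14, and by less than 0.1 at the other times. Relative to those medians, the 3 hr mean of RELB went from 0.19 to 0.61, that of NFKBIA from 0.18 to 0.29 and that of MADH4 from 0.14 to 0.39. The means of NFKB2 (-0.60 and -0.54), MADH5 (-0.65 and -0.46), MADH7 (-0.61 and -0.62) and IRF2 (-0.36 and -0.45) remained below the median of all probes under both. MADH9 went from -0.14 to 0.09, and its 3 hr mean with loess rested on 1 array of replicate 1. At 2 hr the median of all probes was -0.09 with median centring, and relative to it MADH4 was at -0.01, NFKB2 at -0.06, NFKBIA at 0.07 and RELB at 0.07, compared with 0.0037, 0.04, 0.02 and 0.07 with loess. MADH7 and MADH5 were below 0 at 2 hr under all 4 scalings and IRF2 was above 0 at 1 hr under all 4. None of the 8 members passed the test under either normalization.

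NFKBIA encodes IkB-alpha, the inhibitor that NF-kB itself induces and whose mRNA is a usual readout of NF-kB activity. Its ratios were -0.23 and 0.14 at 30 min, 0.16 and 0.12 at 1 hr, -0.0091 and 0.044 at 2 hr, and 0.36, -0.0077 and 0.013 at 3 hr. Both 1 hr samples lay above 0, and at the other times the samples lay on both sides. The 1 hr mean of 0.14 ± 0.16 (SE, n = 2, adjusted p = 0.996) had a 95% interval from -0.23 to 0.51. NFKBIB and NFKBIE, further IkB inhibitors, and NFKBIL1 and NFKBIL2, which are named for their similarity to IkB, were below the dim filter and ran from -0.36 to 0.24. NFKBIL2, like MADH1, was below 0 in both samples at 30 min, 1 hr and 2 hr, and its 2 hr values were -0.36 and -0.24. This was 1 of 3 members at an unadjusted p under 0.05 at 2 hr when the filter was dropped (IRF1, IRF3 and NFKBIL2 of 37, against 6.07% of 1516 probes), and its adjusted p was 0.798.

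IRF2, an antagonist of IRF1 at interferon-responsive promoters, was the single IRF above the filter. It gave -0.32 and 0.20 at 30 min, 0.18 and 0.41 at 1 hr, 0.19 and 0.07 at 2 hr, and -0.98, -0.41 and 0.13 at 3 hr. All 4 samples at 1 hr and 2 hr were above 0, and the 3 hr samples straddled it. The 2 hr mean was 0.13, and -0.05 without background correction. In 2 hr replicate 2, whose orientations opposed each other, IRF2 gave 0.04 and -0.99 with laser RNA in Cy3 and 1.00 and 0.24 in Cy5. At 1 hr it was the member with the largest mean among the 5 of 8 whose samples shared a sign, compared with 50.1% of all probes: 0.29 ± 0.26 (SE, n = 2), with a 95% interval from -0.32 to 0.90 and an adjusted p of 0.996. Within the 3 scan days that held 1 hr arrays beside another time point, the mean was above 0 on 2, from -0.02 to 0.41. The 2 arrays of 1 hr replicate 2, a sample whose orientations opposed each other, gave 1.23 with laser RNA in Cy3 and -0.42 with laser RNA in Cy5.

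Most IRFs were above 0 at 2 hr with background correction and loess, though mostly dim and without passing the test. At that time 6 of the 7 IRFs were above 0 in both samples, compared with 29.9% of all 1516 probes, and their median log2 ratio was 0.16. The probes for IRF3 and IRF7 point to 1 chicken gene, and 2 hr replicate 2 is a sample whose orientations opposed each other. IRF1, which interferon-gamma induces, gave 0.29 and 0.56 (mean 0.42 ± 0.15 SE, unadjusted p = 0.0191, adjusted p = 0.798 in limma over 1516 probes). IRF3, the factor downstream of viral nucleic acid sensors in mammals, gave 0.42 and 0.29 (mean 0.35 ± 0.13 SE, adjusted p = 0.798). The count for the family was 5 of 7 with median centring, 3 of 7 without background correction and 5 of 7 in the deposited ratios (26.0%, 28.1% and 33.8% of all probes). Without background correction 2 of 7 were below 0 in both samples (26.5% of all probes), and the family median was 0.03. Of the 3 blood and immune markers above the filter, EBF was at 0.42 ± 0.16 SE at 2 hr, PAX5 at 0.24 ± 0.19 SE and SPI1 at 0.01 ± 0.24 SE, and their part in the IRF values was not tested. At 3 hr 7 of 7 IRFs were below 0 in replicate 2, where 50.9% of all 1516 probes were above 0. In replicate 1, 5 of 7 were above 0, compared with 51.5% of all probes.

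None of the 7 STATs reached the filter. STAT3, which is activated below interleukin 6 family receptors and is often named in wound responses, gave -0.24 and 0.58 at 30 min and stayed between -0.08 and 0.16 afterwards. STAT6, the interleukin 4 effector, gave -0.31 and 0.60 at 30 min, though its median signal was 0.94 (Cy3) and 0.89 (Cy5) times background. Over all STATs, 4 of 7 were above 0 in both samples at 1 hr and 5 of 7 at 2 hr, compared with 21.8% and 29.9% of all 1516 probes, and the family medians were 0.06 and 0.09. The probes for STAT5A and STAT5B, both among the 5 at 2 hr, point to 1 chicken gene. Replicate 2 of 1 hr and of 2 hr are samples whose orientations opposed each other. The counts moved with the processing. At 1 hr they were 2 of 7 with median centring (family median -0.04), 2 of 7 without background correction and 1 of 7 in the deposited ratios. The shares of all probes were 19.8%, 25.9% and 27.8%. At 2 hr they were 5, 2 and 4 of 7 in the same order, beside 26.0%, 28.1% and 33.8% of all probes.

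The SMADs were the best detected family, and all 3 functional classes were represented among the 4 tested. MADH4 (SMAD4), the common partner of the receptor-regulated SMADs, lay near 0, with -0.12 and 0.07 at 30 min, 0.03 and 0.14 at 1 hr, 0.14 and -0.13 at 2 hr, and 0.14, 0.10 and 0.02 at 3 hr. It was the one tested member above 0 in all 3 samples at 3 hr. In each of these samples, however, the dye orientations had opposite signs. Of the arrays, 4 of 6, 1 of 2 and 4 of 6 were above 0 in replicates 1, 2 and 3. The 3 hr mean was 0.09 ± 0.11 (SE, n = 3), with a 95% interval from -0.17 to 0.35 and an adjusted p of 0.759. Under median centring that mean was 0.53, where the median of all probes was 0.14, and on 3 of the 5 scan days with 3 hr arrays beside another time point it was above 0.

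MADH5 (SMAD5) and MADH9 (SMAD9, also called SMAD8) are receptor-regulated SMADs of the BMP branch. MADH5 gave 0.45 and -0.96 at 30 min, 0.18 and -0.11 at 1 hr, -0.65 and -0.02 at 2 hr, and -2.01, -0.30 and 0.19 at 3 hr. The samples of 30 min, 1 hr and 3 hr lay on both sides of 0, and the 3 hr mean was -0.71 ± 0.43 SE (adjusted p = 0.655). All 6 arrays of 3 hr replicate 1 were below 0, from -5.49 to -0.12. MADH9 gave -0.08 and 0.13 at 30 min, -0.08 and 0.23 at 1 hr, 0.16 and 0.29 at 2 hr, and -0.61, 0.14 and -0.12 at 3 hr. The value of -0.61 came from 1 of the 6 arrays of that sample, at -5.17, while the other 5 ran from -0.04 to 0.82. Both 2 hr samples were above 0, with a mean of 0.23 ± 0.20 SE (adjusted p = 0.993). The 3 receptor-regulated SMADs below the filter were MADH1 of the BMP branch and MADH2 and MADH3 of the TGF-beta branch. MADH1 and MADH3 were low in 30 min replicate 2 (-0.75 and -0.72), where replicate 1 gave -0.01 and 0.03. MADH1 was below 0 in both samples at 30 min, 1 hr and 2 hr, where 15.5%, 26% and 32% of 1516 probes were below in both.

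MADH7 (SMAD7), an inhibitory SMAD that TGF-beta and BMP induce as a brake on their own receptors, was the only tested member past the unadjusted threshold at any time. Its ratios were 0.31 and -0.49 at 30 min, 0.11 and 0.40 at 1 hr, -0.48 and -0.53 at 2 hr, and -1.47, -0.58 and 0.04 at 3 hr. Both samples at 1 hr were above 0 and both at 2 hr below it, as was the case, in either direction, for 11.1% of all 371 probes. The samples of these times did not overlap for MADH7, NFKBIA and RELB among the 8 members and for 35% of all probes. The 3 hr samples of MADH7 reached from its lowest value of the 9 to just above 0. The 2 hr mean was -0.51 ± 0.34 (SE, n = 2), with a 95% interval from -1.31 to 0.30 and an adjusted p of 0.993, and the 3 hr mean was -0.67 ± 0.28 (SE, n = 3, unadjusted p = 0.0461, adjusted p = 0.655). At 2 hr it was the member with the largest mean among the 4 of 8 whose samples shared a sign (65.8% of all probes). Some scan days held another time point as well. Within these, MADH7 was below 0 on 5 of 6 days at 2 hr and 5 of 5 at 3 hr. At 1 hr it was above 0 on 3 of 3. Scan days that held 3 hr arrays alone fall outside these counts, with arrays at 0.77, -0.36 and 0.02 beside -3.14 and -4.28. The days repeat the same 2 or 3 biological samples, some on a single array, and the share of all probes was not counted. Without 3 hr replicate 1 the 3 hr mean was -0.27, and both remaining samples are among those whose dye orientations opposed each other. MADH6 (SMAD6), the other inhibitory SMAD, was just below the filter and gave 0.04 and 0.09 at 2 hr and 0.43, 0.12 and -0.08 at 3 hr.

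The NFATs were all below the filter. At 30 min 5 of 5 were below 0 in replicate 1 (-0.17 to -0.03) and 5 of 5 above 0 in replicate 2 (0.04 to 0.54). Opposite signs in these 2 samples were common on the array, at 68.3% of all 1516 probes. NFATC4 was the most extreme in replicate 2, at 0.54, though its median signal was 0.98 (Cy3) and 0.91 (Cy5) times background. At 2 hr 3 of 5 NFATs were above 0 in both samples and 1 of 5 below (29.9% and 32% of all 1516 probes), with a family median of 0.16. The count above 0 was 3 with median centring (26.0% of all probes), 1 without background correction (28.1%) and 2 in the deposited ratios (33.8%). At 3 hr NFATC2 and NFATC3 were above 0 in all 3 samples, and NFAT5 (the factor of the osmotic stress response) and NFATC1 were below 0 in all 3, compared with 11.7% of all 1516 probes above and 8.91% below, with family means from -0.11 to 0.11. These counts of 2 and 2 were 1 and 1 with median centring (13.4% and 14.1% of all probes) or without background correction (9.43% and 11.3%). They were 1 and 0 in the deposited ratios (10.4% and 13.6%).

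**Figure D4:**
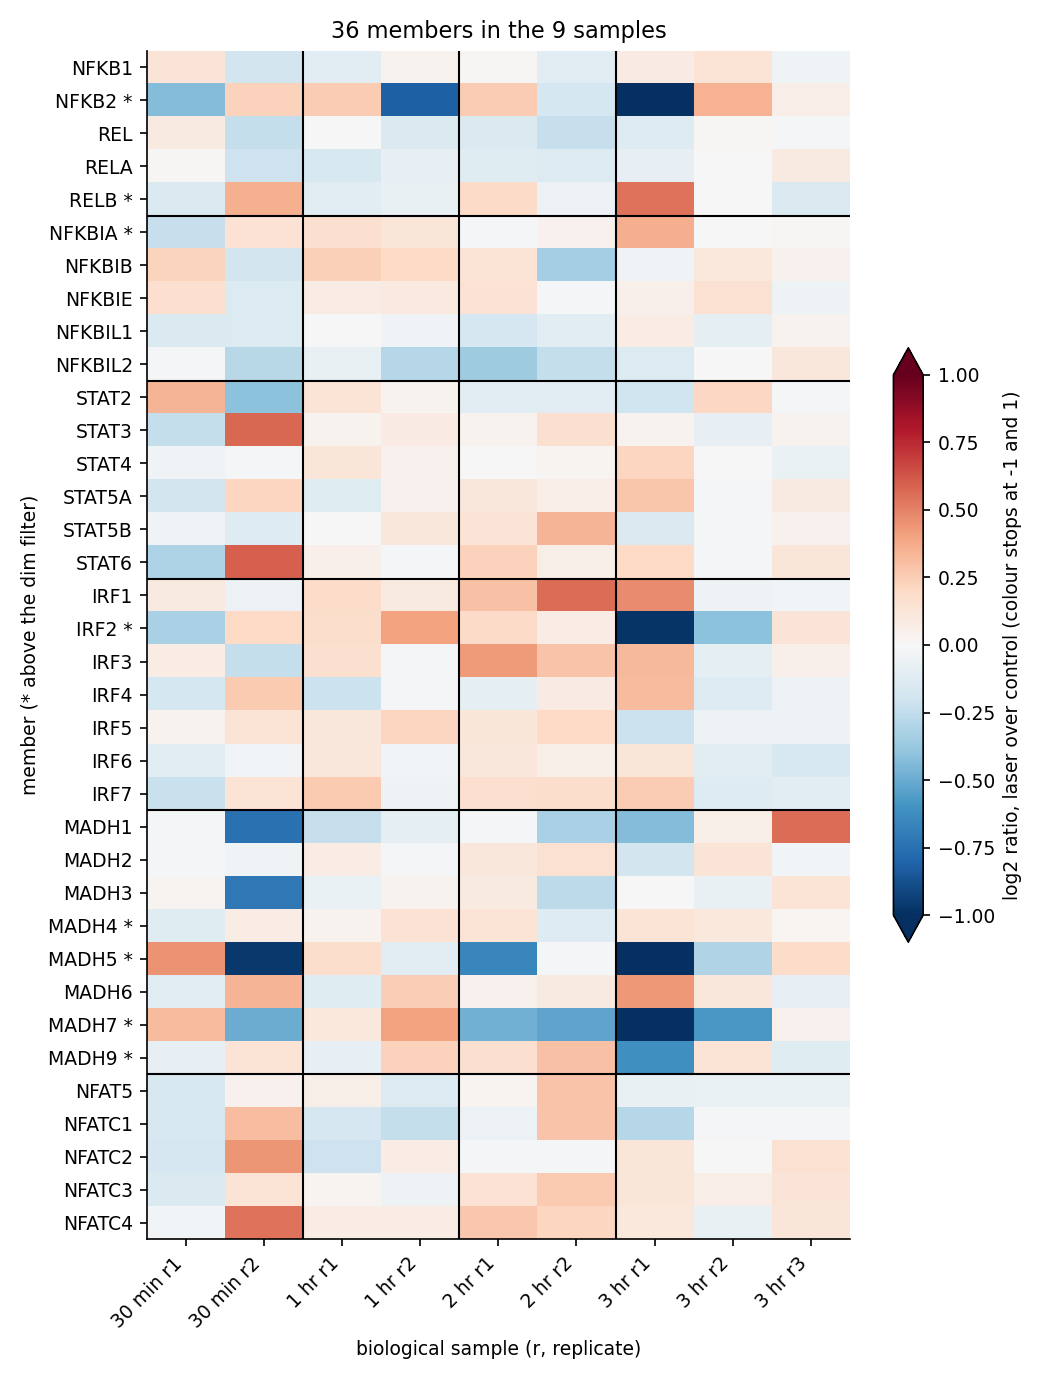
Log2 ratios of laser over control for 36 of the members (rows, grouped by family; a star marks the 8 above the dim filter) in the 9 samples (columns; r, replicate), with red above 0 and blue below 0. The colour scale stops at -1 and 1, so NFKB2 (-2.40), MADH5 (-2.01) and MADH7 (-1.47) at 3 hr replicate 1 lie beyond it, and the 30 min columns of most members have opposite colours.

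The opposition of the 2 samples at 30 min ran through the members. All 8 tested members had opposite signs in the 2 samples (67.7% of the 371 probes), and 28 of all 37 members did (68.3% of the 1516 probes). Across the 8 members the values of the 2 samples correlated with r = -0.918, and across the 371 probes with r = -0.240; genes on an array share its labelling and normalization and are not independent. The members with the lowest values in replicate 1, NFKB2 (-0.43) and IRF2 (-0.32), were above 0 in replicate 2, and those with the highest, MADH5 (0.45) and MADH7 (0.31), were the lowest in replicate 2. The dye orientations of replicate 2 did not correlate over the 371 probes (r = -0.039), compared with r = 0.303 in replicate 1. A response common to both 30 min samples was not detectable in these genes.

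Differences between time points were tested in the same fit. By the F test over the 4 time points 0 of 8 members were called (0% of 371 probes, smallest adjusted p of a member 0.998), and 0 were called between each time point and the next, or between the first and the last (0% of probes in each). No member reached an unadjusted p under 0.05 in the F test or in these contrasts, against 0.27% of the probes in the F test and 0.809%, 0.539%, 1.62% and 0.539% in the contrasts. The difference of MADH7 between 1 hr and 2 hr, -0.76 ± 0.48 SE, had an unadjusted p of 0.159 and an adjusted p of 0.995.

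The orientations of the dyes often gave opposite signs. Of 72 pairs of a tested member and a sample, 35 (48.6%) had the same sign in both orientations, compared with 47.0% of the pairs over all 371 probes. In 3 hr replicate 1, 6 of 8 members kept their sign (80.9% of all 371 probes), and in 2 hr replicate 1, 7 of 8 did (60.6%). In 3 hr replicate 2 the number was 0 of 8 (29.4%) and in 3 hr replicate 3 it was 1 of 8 (14.3%). RELB had the same sign in both orientations in 6 of the 9 samples, and MADH9 in 2.

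**Figure D5:**
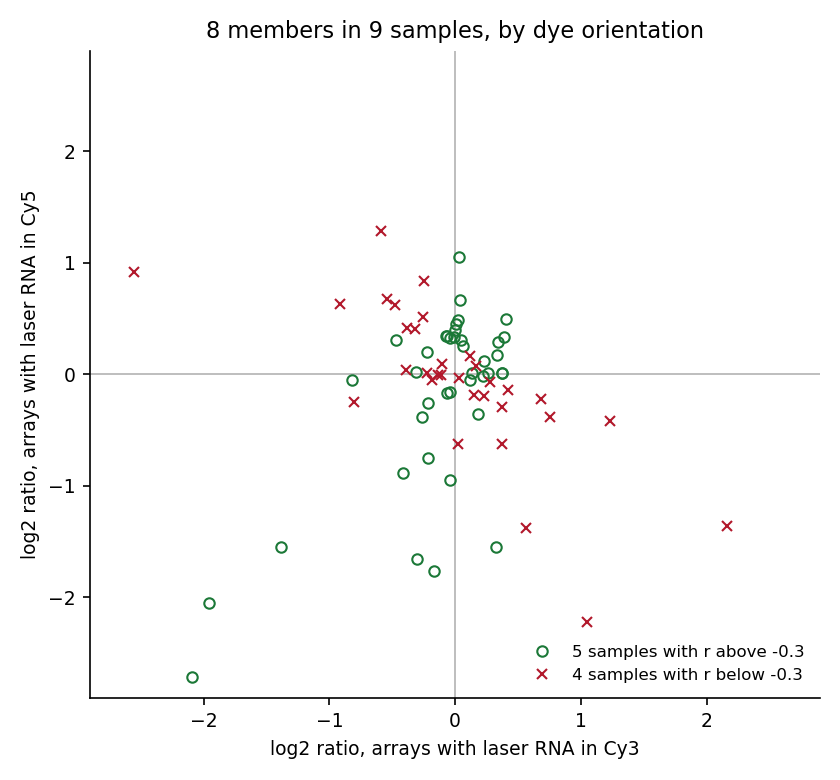
Each mark is a tested member in a sample, with its log2 ratio of laser over control on arrays with laser RNA in Cy3 (x axis) against arrays with laser RNA in Cy5 (y axis); crosses are the 4 samples in which these correlated below -0.3 over 371 probes, and circles the other 5. Marks in the lower left and upper right have the same sign in both orientations (35 of 72), and the 3 circles farthest to the left are NFKB2, MADH5 and MADH7 of 3 hr replicate 1.

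Other genes of the same pathways on the array were examined with the members set aside. These lists were chosen with earlier results of these data known. Their counts beside the shares of all probes are therefore descriptive and no test of a pathway. Of 22 further NF-kB pathway genes 11 passed the filter, compared with 24.5% of all 1516 probes. Among them 0 rose and 0 fell by the test at any time point (0% of 371 probes). The 3 hr means include replicate 1, whose ratios had an SD of 1.04, and are not given without it for these pathway genes. At 3 hr 6 of the 11 had a mean more than 1.2-fold below control and 1 more than 1.2-fold above it. The shares of all probes were 32.9% and 1.89%. The median log2 ratio was -0.35, compared with -0.06 over all probes. Those below control included TRAF6, the ubiquitin ligase of interleukin 1 signalling (-0.61 ± 0.38 SE), and CEBPB, a transcription factor of inflammatory genes (-0.58 ± 0.40 SE). The 1 above was the immediate early gene FOSB (0.38 ± 0.17 SE, adjusted p = 0.655 in limma). Of 21 JAK-STAT and interferon genes 4 passed (SPI1, CEBPB, MYC and NCOA1). Of 33 TGF-beta and BMP genes 9 passed, and of 16 calcineurin and NFAT genes 5 passed, beside 24.5% of all probes. In these lists 0 rose and 0 fell by the test at each time (0% of 371 probes). ID1, a direct BMP target in mammals, had means of -0.12, 0.24 and 0.73 at the first 3 time points (± 0.32 SE each) and of -0.43 ± 0.26 SE at 3 hr, with an unadjusted p of 0.0538 at 2 hr (adjusted p = 0.993) and an adjusted p of 0.655 at 3 hr. SNAI1, a TGF-beta target of epithelial transition, ran from -0.15 to 0.03 over the 4 means.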

How the data were processed

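The deposited channel files hold spot and background intensity on a linear scale, measured by the authors with ImaGene 4.1 (per the file headers), without background subtraction or normalization. The authors' series table gives deposited log2 ratios that equalled the raw ratio of spot means read by file name on 33 of 33 arrays, within 1e-06, so its scale and direction are known; column medians ran from -2.05 to 2.47, and it served as an alternative after median centring. The authors' later steps (lowess, removal of poor hybridizations, filters and the methods' t-test) are not part of these values, and all 33 arrays were kept. The dye of each channel and of the laser RNA was taken from the image names in the headers, which disagreed with the file names on 2 arrays. Background was corrected by normexp (offset 50) and ratios by loess within an array, with 18 control identifiers at weight 0. Spots, then arrays of an orientation, then both orientations were averaged to 9 samples. Probes whose brighter channel exceeded 1000 on 50% or more of arrays (371 of 1516) entered limma (version 3.58.1, under R 4.3.3 with statmod 1.5.0), which tested the mean of each time point against 0 on 5 residual degrees of freedom, and p-values were adjusted by Benjamini-Hochberg over those probes. The script was tested on simulated data. Named members are all those above the filter, with full statistics for the member of largest mean among those of 1 sign in every sample of a time point. Values of members below the filter were chosen for the text after they had been seen, beside the counts and ranges of their families. The members and pathway lists were chosen with earlier results of these data known. Alternatives covered channel reading, background, normalization, filter, unit of replication, dye direction and each sample left out. The number of biological samples limits precision. Probe, promoter and protein sequences were not used here. A few genes, including 1 member that is left out of the figures, are counted but not reported here.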

Additional observations from a re-analysis of the deposited data

Results flagged for a closer look

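MADH7 (SMAD7) had opposite signs at 1 hr and 2 hr without passing the test. Its log2 ratio was above 0 in both 1 hr samples (0.11 and 0.40) and below 0 in both 2 hr samples (-0.48 and -0.53), a difference of -0.76 on the log2 scale. The samples of these times lay on opposite sides of 0 for 11.1% of all 371 probes and did not overlap for 35%. In limma the contrast had an SE of 0.48, an unadjusted p of 0.159 and an adjusted p of 0.995, so the difference did not reach 0.05 before the correction over 371 probes or after it. Both arrays of 1 hr replicate 2 disagreed, at -1.36 and 2.16, and the part of the dye in this value was not tested. Groups of 2 or 3 samples are too small for the search for single samples that stand apart from their group.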

How the results depend on the processing

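Counts of members called at 30 min, 1 hr and 2 hr were 0 under all 25 alternatives. An F test was available under 23 of these. At 3 hr and by the F test the count was 0 under all but 1 alternative: with the 4 samples of opposed dye orientations left out, 3 members were called at 3 hr (MADH5, MADH7 and NFKB2, beside 27.5% of 371 probes) and 2 by the F test (MADH5 and NFKB2, beside 16.7%). That fit holds 3 hr replicate 1 as its single 3 hr sample, assumed to vary like the other groups, with 1 residual degree of freedom. Shares of all probes past 1.2-fold are not given for the alternatives. The number of members over 1.2-fold was less stable. At 30 min (0) it was 1 with normexp offset 16, the series table or a filter at 800, 2 without the filter, and 0 to 4 with a sample left out (3 without replicate 1, 4 without replicate 2). At 1 hr (2) it was 1 without background correction, 4 with the suffix 3 arrays of the opposed samples turned, 3 without the filter, and 0 with median centring, with the opposed samples left out, or with arrays as units (sample as a random block, the methods' t-test on arrays, or scan day as a random block, the last chosen after seeing the data); it was 0 to 3 with a sample left out (0 without 1 hr replicate 2). At 2 hr (2) it was 4 with channels read by file name, 1 without background correction or from the series table, 5 without the filter, and 2 with any sample left out. At 3 hr (4) it was 7 with median centring, the series table, suffix 3 arrays turned or the opposed samples left out, 2 with suffix 5 arrays unturned, and 1 to 5 with a sample left out (1 without 3 hr replicate 1). A filter at 800 kept 16 members instead of 8, and leaving out a sample kept 8 to 12. Directions reversed for MADH4 at 3 hr by file name (-0.0050) and with suffix 3 arrays turned (-0.081), for IRF2 at 1 hr with suffix 3 arrays turned (-0.33) and for MADH7 at 3 hr with suffix 5 arrays unturned (0.17). MADH7 at 3 hr ran from -1.02 to -0.27 with a sample left out and MADH7 at 2 hr (-0.51) stayed below 0 in all 25 alternatives, from -0.62 to -0.10, with -0.11 in the series table and -0.10 with suffix 3 arrays turned. The methods' t-test, before adjustment, selected MADH7 at 2 hr as the only member, on samples and on arrays alike. At 2 hr it also selected 24 of all 371 probes on samples and 29 on arrays. After Benjamini-Hochberg it selected 0 members and 0 probes. The number of members at an unadjusted p under 0.05 at 3 hr (1, MADH7) differed from 1 under 21 of the 25 alternatives and ran from 0 to 4. The causes of these shifts were not tested.

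Same-numbered samples of different time points did not deviate together (12 pairs, r from -0.377 to 0.250, median -0.0865). Where a time point has 2 samples, their deviations from its mean mirror each other. Pairs therefore repeat, and the 12 values are not independent. With the replicate number as a block 0 members were called at each time and by the F test, 0, 2, 2 and 4 were over 1.2-fold, and the unadjusted p of MADH7 at 3 hr became 0.0682, so that the block left 0 members under 0.05 there. Signals near background limit what the 29 dim members can show.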
